A study of Homo sapiens with 9 samples.

Results

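The transcription factors that direct the epithelial-mesenchymal transition (EMT), and vimentin, were followed in MDA-MB-231 cells with and without knockdown of ASAH1. The genes were chosen by symbol, with earlier results of these data known. They were the zinc-finger repressors ZEB1, ZEB2, SNAI1 and SNAI2, the basic helix-loop-helix factors TWIST1 and TWIST2, the homeobox factor PRRX1, the epithelial factor GRHL2, the epithelial splicing regulator ESRP1, and VIM, the gene for vimentin. All 10 were listed, among 26485 genes in all. In the comparison of shRNA #1 with nonspecific shRNA 6 of the 10 genes reached the mean normalized count of 10 needed for a test, and in the comparison of shRNA #2 with nonspecific shRNA 5 did. Transcripts of ZEB1, ZEB2 and SNAI1 rose with both hairpins, and VIM transcripts fell with both, more with shRNA #2. SNAI2 was called higher with shRNA #1 and was not called with shRNA #2. ESRP1 reached the count needed for a test only through the shRNA #1 libraries, where it is high.

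In EMT, epithelial cells lose their junctions and apical-basal polarity and take on the shape and motility of mesenchymal cells. SNAI and ZEB proteins bind E-box sequences in the promoters of epithelial genes, among them CDH1 (E-cadherin), and repress them, and TWIST and PRRX1 proteins act in the same program. GRHL2 and ESRP1 hold the epithelial state, GRHL2 as a transcription factor that opposes ZEB1 and ESRP1 as an RNA-binding protein that sets epithelial splicing, and vimentin is the intermediate filament of mesenchymal cells.

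The series addressed the role of ASAH1, the lysosomal acid ceramidase that splits ceramide into sphingosine and a fatty acid, in triple-negative breast cancer. MDA-MB-231 is an established human line of that cancer with a mesenchymal shape. All 9 libraries came from this line, in groups of 3 that stably expressed a nonspecific (NS) control shRNA, the ASAH1 shRNA #1, or the ASAH1 shRNA #2, so every group carried a hairpin and none was left without one. The replicates were described as biological, but nothing stated that they were separately derived cell populations, so the tests measure the spread between these libraries.

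Reads assigned to genes numbered 30989598 to 34867548 in the NS libraries, 23806003 to 39791698 with shRNA #1 and 35653318 to 49659106 with shRNA #2. Markers of a mesenchymal breast cancer line (CD44, AXL, CAV1, MSN, LGALS1 and SPARC) were all present, and their summed level was 3861 to 4098 RPM (the reads-per-million unit, after TMM scaling) with NS shRNA, 3816 to 3980 with shRNA #1 and 3676 to 3836 with shRNA #2. The luminal factors ESR1, PGR and FOXA1 had at most 6 reads in any library, while GATA3, ERBB2 and XBP1 were expressed, and the summed level of the 8 luminal markers was 214 to 236 with NS shRNA, 263 to 292 with shRNA #1 and 376 to 446 with shRNA #2. Much of that sum was XBP1, at 103, 197 and 315 RPM, and its part in the results was not tested. Of 10 epithelial line markers 7 exceeded 1 RPM with NS shRNA, including KRT19 and CLDN4. The sum of the 10 was 592 to 702 with NS shRNA, 472 to 543 with shRNA #1 and 512 to 616 with shRNA #2. No shRNA #1 library overlapped the NS libraries in this sum. Much of it was KRT19, at 310, 155 and 210 RPM. Of the others above 1 RPM, CDH1, CLDN3 and SPINT1 were also lower with shRNA #1, while CLDN4, CLDN7 and EPCAM were higher. The part of this sum in the results was not tested. Summed fibroblast (29.7 to 40.4 over all groups), endothelial (5.77 to 15.4) and leukocyte (6.41 to 33.5) markers were low, with DCN and THY1 at or near 0 reads, and the leukocyte sum was almost all CD14, at 29.1, 6.58 and 31.2 RPM with NS shRNA, shRNA #1 and shRNA #2.

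Promoter windows of RefSeq on GRCh38.p14, reaching 250 bases before and 50 bases from the start site, were read for genes whose direction was shared by the hairpins. The windows of ZEB1 (chr10:31318966-31319265, plus strand, nearest of its 7 windows to the start of the main transcript), ZEB2 (chr2:144520070-144520369, minus strand) and VIM (chr10:17227991-17228290, plus strand) are shown, because every knockdown library stood above every NS library for ZEB1 and ZEB2 and below every NS library for VIM. SNAI1 also stood above every NS library in every knockdown library, but no window was listed for it. Windows were also listed for TWIST2 and PRRX1. Capitals mark the E-box that SNAI and ZEB proteins bind (CACCTG, or CAGGTG on the other strand) and the GC box (GGGCGG or CCGCCC).
ZEB1: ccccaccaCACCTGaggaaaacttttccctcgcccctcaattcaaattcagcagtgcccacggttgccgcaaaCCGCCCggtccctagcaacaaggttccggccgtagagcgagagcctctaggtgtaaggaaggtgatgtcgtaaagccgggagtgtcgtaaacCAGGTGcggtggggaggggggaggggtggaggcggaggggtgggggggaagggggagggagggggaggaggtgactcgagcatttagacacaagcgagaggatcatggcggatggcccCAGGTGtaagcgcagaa
ZEB2: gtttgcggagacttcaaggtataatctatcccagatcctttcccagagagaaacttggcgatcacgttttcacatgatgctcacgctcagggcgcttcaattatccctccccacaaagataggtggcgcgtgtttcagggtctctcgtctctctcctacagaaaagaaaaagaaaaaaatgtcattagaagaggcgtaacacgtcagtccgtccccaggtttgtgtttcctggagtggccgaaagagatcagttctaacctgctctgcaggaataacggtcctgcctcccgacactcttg
VIM: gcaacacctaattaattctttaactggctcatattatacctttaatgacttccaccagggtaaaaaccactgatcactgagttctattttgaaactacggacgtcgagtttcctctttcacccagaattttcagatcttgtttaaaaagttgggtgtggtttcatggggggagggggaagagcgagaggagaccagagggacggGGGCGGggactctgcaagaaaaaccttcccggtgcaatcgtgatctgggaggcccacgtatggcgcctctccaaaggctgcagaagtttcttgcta
The ZEB1 window held 3 such E-boxes, beginning at -242, -85 and 33 from the start site, and a GC box at -177. The VIM window held a GC box at -46 and no E-box of these letters, and the ZEB2 window held neither. Of 35116 promoter windows, 20.6% held at least 1 such E-box and 45.0% at least 1 GC box, so these letters are common and their presence is a description, not evidence of binding.

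Per transcript length, the mean levels of the 10 genes with NS shRNA ran from 0.00767 for ESRP1 to 945 for VIM, as the plot of levels in each library shows. The levels were of the RPKM type, that is RPM divided by the length of the main transcript in kilobases. VIM was far above the others at 945 ± 16.2 (SD, n = 3) with NS shRNA, and took 0.208% to 0.213% of all gene reads, ranking 12th to 13th among genes by read number. SNAI2 (12.6 ± 0.840) and ZEB1 (9.45 ± 1.05) came next, and their NS libraries did not overlap. ZEB2 stood at 1.19 ± 0.128 and SNAI1 at 0.495 ± 0.131. TWIST2, TWIST1, GRHL2, PRRX1 and ESRP1 were at most 0.211 in every NS library, and GRHL2, PRRX1 and ESRP1 followed in that order, with PRRX1 overlapping both of its neighbours. With shRNA #2 ZEB1 (14.9 ± 1.59) stood above SNAI2 (11.6 ± 0.754), and with shRNA #1 SNAI2 (32.1 ± 1.20) stood above ZEB1 (13.9 ± 0.952).

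**Figure D1:**
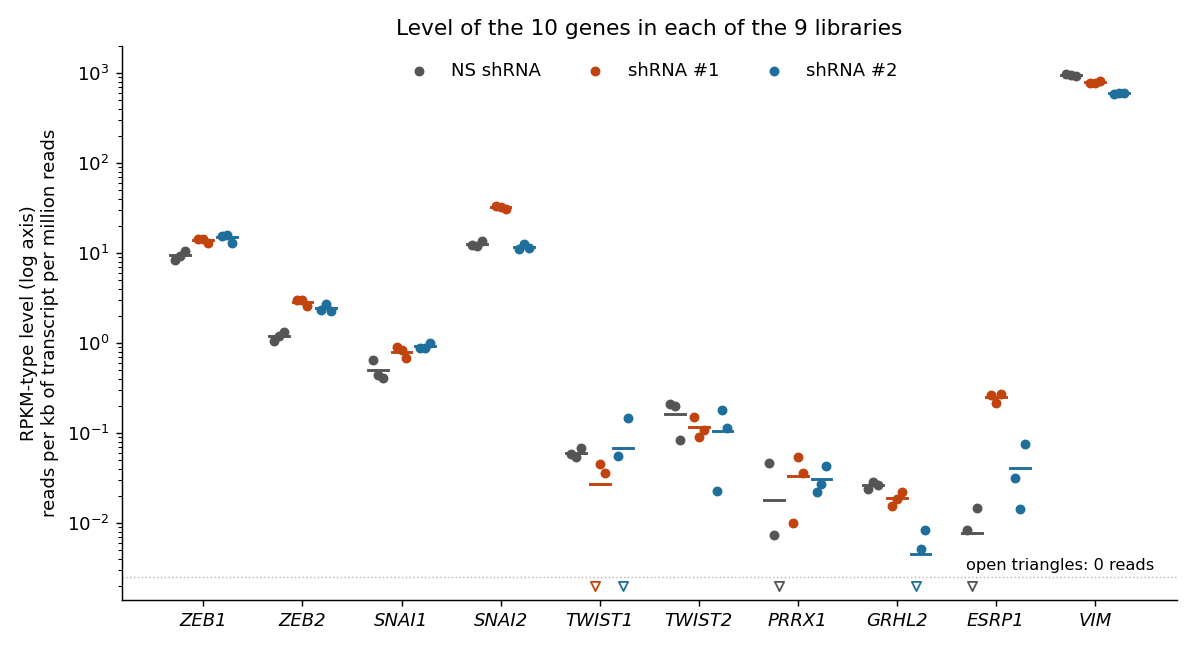
Level of each of the 10 genes in each library, as RPKM-type values on a log axis, with a bar at the group mean of 3 libraries and open triangles for libraries without a read. VIM lies between 584 and 963 in all 9 libraries, SNAI2 is above 30 only in the shRNA #1 libraries, and TWIST1, TWIST2, PRRX1 and GRHL2 reach at most 0.211.

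ASAH1 itself was measured first as the check of the knockdown. Its normalized count was 4436, 4512 and 4518 with NS shRNA and 1268, 1365 and 1348 with shRNA #1. In the table of shRNA #2 it was 4787, 4898 and 4871 with NS shRNA and 780, 807 and 762 with the hairpin. ASAH1 fell by 1.76 on the log2 scale (SE 0.05, limma adjusted p = 9.49e-09) with shRNA #1 and fell by 2.63 (SE 0.06, limma adjusted p = 5.42e-10) with shRNA #2, so the libraries matched their labels. Each hairpin was compared with the same 3 NS libraries, which were scaled separately in each table, so the comparisons are not independent of each other.

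With shRNA #1, 5 of the 6 tested genes were higher and 1 was lower, against 32.8% of all 14341 tested genes called higher and 33.3% called lower at a limma adjusted p below 0.05. With shRNA #2, 3 of the 5 tested genes were higher and 1 was lower, against 33.5% and 33.4% of 14250 genes. ESRP1 passed the minimum only through the shRNA #1 libraries, where it is high, so its place among the tested genes rests on the values that the test compares. With no minimum its difference with shRNA #1 was 4.15 (SE 0.44, limma adjusted p = 1.70e-05). Leaving ESRP1 out, 4 of 5 genes were higher with shRNA #1. Most tested genes were called in either comparison, and a call by itself does not set these genes apart. Because the RNA came from bulk cultures, a change in the share of cells that express a gene and a change in its level per cell cannot be told apart.

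ZEB1 (ENSG00000148516, chromosome 10, bases 31318495 to 31529814, hg38), a repressor of CDH1 and of epithelial microRNA genes, had normalized counts of 1667, 1841 and 2090 with NS shRNA and 2845, 2827 and 2510 with shRNA #1. In the table of shRNA #2 the counts were 1799, 1998 and 2254 with NS shRNA and 3322, 3396 and 2770 with the hairpin. Every hairpin library was above every NS library. ZEB1 rose by 0.55 on the log2 scale (SE 0.09, limma adjusted p = 0.000340), from 1866 ± 213 to 2728 ± 189 (SD, n = 3), with shRNA #1. With shRNA #2 it rose by 0.65 (SE 0.10, limma adjusted p = 0.000168), from 2017 ± 228 to 3163 ± 342 (SD, n = 3).

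ZEB2 (ENSG00000169554, chromosome 2, bases 144364364 to 144521057), the other ZEB repressor, started from a lower level and changed more. Its counts were 327, 367 and 407 with NS shRNA and 929, 916 and 793 with shRNA #1, a rise of 1.26 on the log2 scale (SE 0.10, limma adjusted p = 3.63e-06). With shRNA #2 the counts were 782, 897 and 754 against 352, 398 and 439 in the NS libraries of that table, a rise of 1.03 (SE 0.10, limma adjusted p = 8.38e-06). The lowest hairpin library thus stood well above the highest NS library in both tables, and the fold was 2.40 with shRNA #1 and 2.04 with shRNA #2. The ZEB1 and ZEB2 windows shared none of the searched motifs.

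SNAI1 (Snail, ENSG00000124216, chromosome 20, bases 49982980 to 49988886), an early-acting repressor of CDH1 with a short-lived protein, was read at 25 to 78 reads per library. Its normalized counts were 36.6, 24.5 and 23.1 with NS shRNA and 50.8, 46.6 and 38.4 with shRNA #1, where the lowest hairpin library exceeded the highest NS library by little. It rose by 0.69 on the log2 scale (SE 0.23, limma adjusted p = 0.0248). This call was lost when NS replicate 2 (0.61, limma adjusted p = 0.0770), NS replicate 3 (0.57, limma adjusted p = 0.0680), shRNA #1 replicate 1 (0.60, limma adjusted p = 0.0803) or shRNA #1 replicate 2 (0.67, limma adjusted p = 0.0744) was left out. With shRNA #2 the counts were 53.9, 53.4 and 60.5 against 39.5, 26.6 and 24.9, a rise of 0.89 (SE 0.22, limma adjusted p = 0.00498) that kept its call with each library left out in turn (adjusted p 0.00196 to 0.0200).

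SNAI2 (Slug, ENSG00000019549, chromosome 8, bases 48917598 to 48921740), the Snail relative that is prominent in basal mammary cells, gave the plainest difference between the hairpins. Its normalized counts were 884, 863 and 984 with NS shRNA and 2410, 2330 and 2224 with shRNA #1. The groups lay far apart, and SNAI2 rose by 1.35 on the log2 scale (SE 0.07, limma adjusted p = 2.11e-07), from 910 ± 64.8 to 2321 ± 92.9 (SD, n = 3). With shRNA #2 the counts were 864, 974 and 884 against 954, 936 and 1061 in the NS libraries. Here the groups overlapped and the difference was -0.12 (SE 0.08, limma adjusted p = 0.212), with a sign and call that turned when the values were divided by ACTB (0.40, limma adjusted p = 0.00323).

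The other mesenchymal factors were barely transcribed. TWIST1 (chromosome 7, bases 19020991 to 19117636), a driver of EMT in metastasis, had 3, 3 and 4 reads in the NS libraries, 0, 3 and 2 with shRNA #1 and 3, 0 and 11 with shRNA #2. TWIST2 (chromosome 2, bases 238848032 to 238910534), its close relative, had 9, 9 and 4 reads, then 5 in each shRNA #1 library, then 1, 9 and 7 with shRNA #2. PRRX1 (chromosome 1, bases 170662728 to 170739421), a homeobox factor of mesenchyme, had 6, 1 and 0 reads, then 1, 9 and 5, then 3, 4 and 8. None of these genes reached the minimum for a test. The ratios of summed reads, scaled by the size factors of the libraries, had exact 95% intervals that included 1 for all 3 genes and both hairpins. They ran from 0.504 (0.135 to 1.62) for TWIST1 with shRNA #1 to 2.16 (0.829 to 6.26) for PRRX1 with shRNA #1. Such intervals cover counting error only, and a difference of this size was not detectable at this depth.

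ESRP1 (ENSG00000104413, chromosome 8, bases 94641074 to 94707466), the splicing regulator lost in mesenchymal cells, went from nearly silent to low but measurable with shRNA #1. It had 1, 0 and 2 reads in the NS libraries, 25, 33 and 35 with shRNA #1 and 4, 2 and 13 with shRNA #2. All shRNA #1 libraries were above all others, and the shRNA #2 libraries overlapped the NS libraries. Summed reads, scaled by the size factors, were 31.2 times the NS level with shRNA #1 (exact 95% counting interval 10.4 to 154). With shRNA #2 they were 5.52 times that level (1.62 to 29.1). ESRP1 passed the minimum for a test only through the shRNA #1 libraries, and the fitted difference of 4.15 (SE 0.48, limma adjusted p = 4.85e-05) depends on the pseudocount of 1. With shRNA #2 it was below the minimum, and with no minimum the difference was 1.59 (SE 0.59, limma adjusted p = 0.0422). Even with shRNA #1 its level was 0.250 ± 0.0314 (SD, n = 3) RPKM, below that of SNAI1.

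GRHL2 (ENSG00000083307, chromosome 8, bases 101492439 to 101669726), the epithelial factor opposed to ZEB1, had 4, 5 and 5 reads in the NS libraries, 2, 4 and 4 with shRNA #1 and 0, 1 and 2 with shRNA #2. The ratio of summed reads, scaled by the size factors, was 0.720 (exact 95% counting interval 0.286 to 1.74) with shRNA #1 and 0.187 (0.0344 to 0.669) with shRNA #2. It was below the minimum for a test in both tables, and with no minimum the difference with shRNA #2 was -1.79 (SE 0.47, limma adjusted p = 0.00717). These libraries held at most 5 reads of it each.

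VIM (ENSG00000026025, chromosome 10, bases 17228241 to 17237593), the mesenchymal filament gene, was the tested gene called lower with both hairpins. Its normalized counts were 69005, 67112 and 67037 with NS shRNA and 55991, 54820 and 57719 with shRNA #1. In the table of shRNA #2 they were 74459, 72850 and 72279 with NS shRNA and 45150, 46495 and 45940 with the hairpin. The libraries of a group lay close together and the groups did not overlap. VIM fell by 0.27 on the log2 scale (SE 0.04, limma adjusted p = 0.000309) with shRNA #1, a direction that turned relative to ACTB (0.62, limma adjusted p = 9.70e-07). With shRNA #2 VIM fell by 0.67 (SE 0.05, limma adjusted p = 6.32e-07), with a difference of -0.15 relative to ACTB (limma adjusted p = 0.0292).

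ACTB (beta-actin), which the study's qRT-PCR used as internal control, was not steady: it fell by 0.89 on the log2 scale (SE 0.05, limma adjusted p = 8.83e-07) with shRNA #1 and fell by 0.52 (SE 0.05, limma adjusted p = 1.10e-05) with shRNA #2. Dividing by ACTB moved the median of all tested genes from 0.00 to 0.89 and from 0.01 to 0.53, and the fall of ASAH1 to differences of -0.87 and -2.11, and the rises of ZEB1 to 1.44 and 1.17 and of ZEB2 to 2.15 and 1.55. With that scaling 12242 genes were called higher and 447 lower of 14461 with shRNA #1, and 9284 and 1585 of 14276 with shRNA #2. All 6 EMT genes tested with shRNA #1 were then higher, and with shRNA #2 4 were higher and VIM lower. VIM lay below the median of all tested genes with both hairpins. Dividing by ACTB shifts all genes of a comparison by nearly the same amount, so this place could not differ between the scalings.

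**Figure D2:**
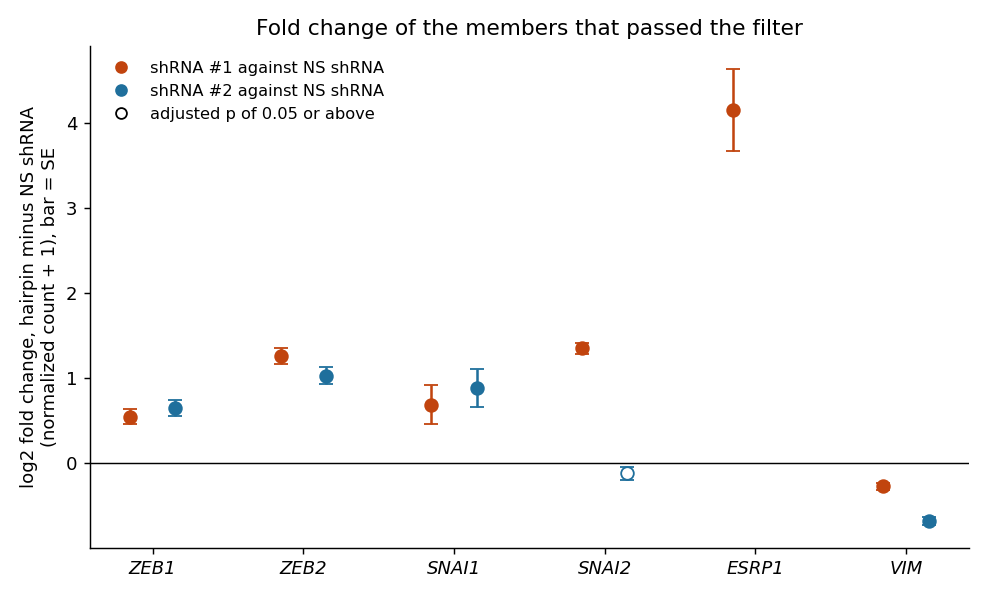
Log2 fold change of each gene that passed the minimum, hairpin minus NS shRNA on log2(normalized count + 1), with bars of 1 SE and open points where the adjusted p was 0.05 or above. ZEB1, ZEB2 and SNAI1 lie above 0 and VIM below 0 with both hairpins (VIM with shRNA #1 lies at 0.62 relative to ACTB), whereas SNAI2 lies at 1.35 with shRNA #1 and -0.12 with shRNA #2; ESRP1 was tested with shRNA #1 only.

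The hairpins were then compared directly on the recovered reads of all 9 libraries. Of 14381 genes tested with edgeR, 31.4% were higher and 32.5% lower with shRNA #2 than with shRNA #1 at an adjusted p below 0.05, and of the 6 EMT genes tested 4 were called, each of them lower. ESRP1 is among these 4, and it passed the minimum only through the shRNA #1 libraries. ZEB1 stood at 82.3 ± 5.65 RPM with shRNA #1 and 88.2 ± 9.46 with shRNA #2 (SD, n = 3), a difference of 0.09 on the log2 scale (95% interval -0.10 to 0.27, edgeR adjusted p = 0.426). SNAI1 differed by 0.19 (95% interval -0.20 to 0.59, edgeR adjusted p = 0.421). Neither difference passed the threshold, and the intervals leave room for a change of up to 0.27 and 0.59.

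The 4 genes that differed were lower with shRNA #2. SNAI2 stood at 70.0 ± 2.62 RPM with shRNA #1 and 25.3 ± 1.64 with shRNA #2, a difference of -1.48 (95% interval -1.61 to -1.35, edgeR adjusted p = 1.33e-08). VIM stood at 1694 ± 42.0 and 1279 ± 20.1, a difference of -0.42 (95% interval -0.49 to -0.35, edgeR adjusted p = 1.63e-06). ESRP1 differed by -2.52 (95% interval -3.35 to -1.69, edgeR adjusted p = 0.000309), from 0.940 ± 0.118 to 0.152 ± 0.117 RPM. ZEB2 stood at 26.5 ± 2.25 and 22.6 ± 2.11, a difference of -0.24 (95% interval -0.42 to -0.06, edgeR adjusted p = 0.0404) that lost its call with limma on log2 RPM (-0.22, adjusted p = 0.0599), with the replicate block (-0.24, adjusted p = 0.0590), and without NS replicate 2, shRNA #1 replicate 1 or 2, or shRNA #2 replicate 1 or 3 (-0.19 to -0.24, adjusted p 0.0573 to 0.133). ASAH1 was itself lower with shRNA #2, by a difference of -0.89 (edgeR adjusted p = 6.84e-08), so the hairpins differed in the depth of knockdown as well as in sequence, which cannot be told apart.

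CDH1 (E-cadherin, chromosome 16, bases 68737292 to 68835537), the adherens junction gene that SNAI and ZEB proteins repress, fell steeply. Its normalized counts were 400, 475 and 468 with NS shRNA and 56.2, 33.7 and 36.5 with shRNA #1, and, in the table of the other hairpin, counts were 431, 516 and 505 with NS shRNA and 12.9, 17.5 and 13.2 with shRNA #2. CDH1 fell by 3.41 on the log2 scale (SE 0.18, limma adjusted p = 3.93e-07) with shRNA #1 and fell by 4.97 (SE 0.16, limma adjusted p = 7.11e-09) with shRNA #2. Per length, CDH1 went from 2.80 ± 0.261 RPKM with NS shRNA to 0.264 ± 0.0750 and 0.0843 ± 0.0149 (SD, n = 3), from above ZEB2 to below SNAI1. It was lower with shRNA #2 than with shRNA #1, by a difference of -1.61 (95% interval -2.10 to -1.12, edgeR adjusted p = 0.000174).

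Epithelial genes were called in both directions. So were all tested genes, 32.8% higher and 33.3% lower with shRNA #1, and 33.5% and 33.4% with shRNA #2. Of 33 listed epithelial genes 28 were tested with shRNA #1, of which 12 were higher, 12 lower and 4 not called, with a median log2 fold change of 0.10 (all genes 0.00). With shRNA #2, 27 were tested, 9 were higher, 13 lower and 5 not called, with a median of 0.05 (all genes 0.01). TJP3, a tight junction scaffold, fell from 210 ± 4.87 to 19.6 ± 1.86 with shRNA #1 and from 227 ± 4.73 to 36.7 ± 3.46 with shRNA #2, and SPINT1, an inhibitor of epithelial serine proteases, had log2 fold changes of -1.26 and -1.66. MAL2, an apical transport protein, went the other way, from 180 ± 2.33 to 312 ± 4.48 with shRNA #1 and from 195 ± 2.12 to 4921 ± 139 with shRNA #2 (limma adjusted p = 2.17e-05 and 2.72e-11). CLDN1 rose by 0.83 and 0.76 and OCLN by 0.36 and 1.10, whereas CLDN3 (-1.06 and -1.29) and LLGL2 (-1.27 and -0.91) fell; these 4 junction and polarity genes were chosen after their values were seen.

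Paralogs of GRHL2, ESRP1 and the Snail genes were also chosen after their values were seen. GRHL1, which binds the same DNA sites as GRHL2, had normalized counts of 16.7, 30.4 and 25.9 with NS shRNA and 61.5, 69.1 and 46.1 with shRNA #1. With shRNA #2 it had 71.2, 74.8 and 72.9 against 18.1, 33.0 and 27.9. GRHL1 rose by 1.26 (SE 0.26, limma adjusted p = 0.00197) and by 1.48 (SE 0.24, limma adjusted p = 0.000256), and no hairpin library overlapped the NS libraries. ESRP2, the paralog of ESRP1 with a related role in epithelial splicing, rose from 416 ± 25.5 to 669 ± 46.1 with shRNA #1 and from 449 ± 27.2 to 611 ± 56.6 with shRNA #2 (limma adjusted p = 5.26e-05 and 0.00166). SNAI3, the third Snail gene, had at most 6 reads in any library.

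Mesenchymal genes other than vimentin were called in both directions, as were all tested genes (32.8% higher and 33.3% lower with shRNA #1, 33.5% and 33.4% with shRNA #2). Of 29 listed, 25 were tested with shRNA #1 (9 higher, 11 lower, 5 not called, median -0.16), and 26 with shRNA #2 (9 higher, 10 lower, 7 not called, median -0.13). The mesenchymal growth factor receptor gene PDGFRB (log2 fold changes of -1.03 and -1.22), the integrin gene ITGB3 (-1.18 and -0.97) and the matrix gene TGFBI (-1.03 and -0.69) fell with both hairpins. FN1 (fibronectin), chosen after its values were seen, took opposite directions: it rose from 9324 ± 906 to 14568 ± 1205 with shRNA #1 (limma adjusted p = 7.39e-05) and fell from 10077 ± 962 to 5028 ± 532 with shRNA #2 (limma adjusted p = 3.44e-06). CDH2 (N-cadherin), chosen likewise, rose by 1.19 (SE 0.18, limma adjusted p = 0.000250) and by 0.70 (SE 0.19, limma adjusted p = 0.00745), from NS counts of only 35.6 to 56.5.

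**Figure D3:**
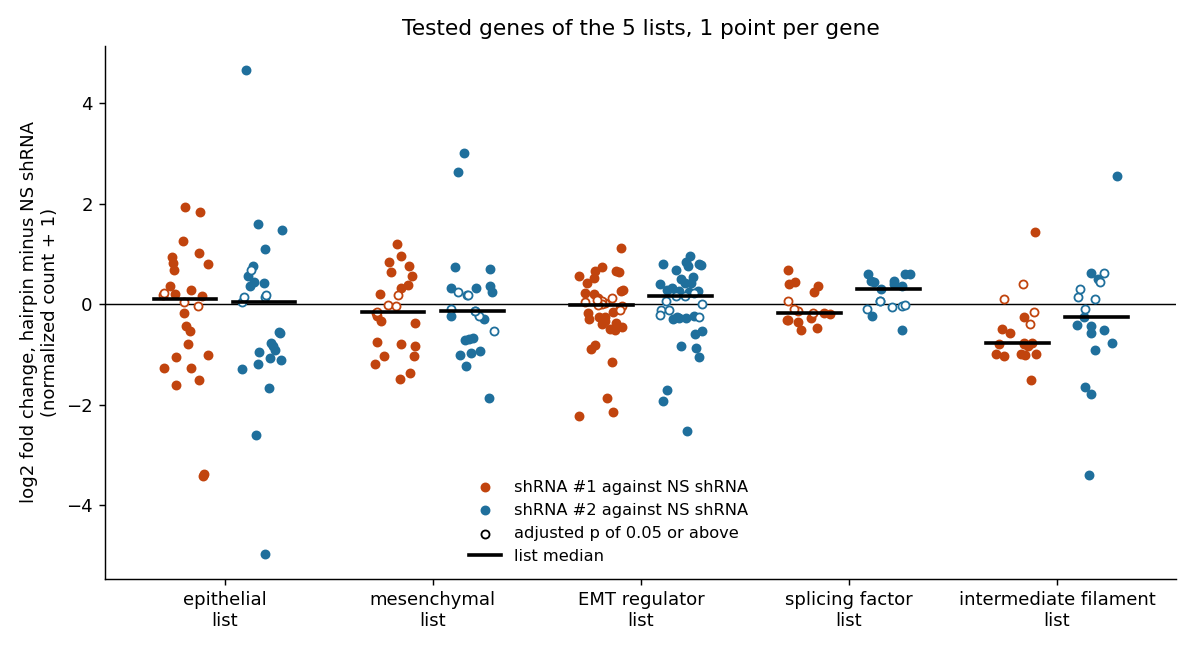
Log2 fold change (hairpin minus NS shRNA, on log2(normalized count + 1)) of every tested gene of the 5 lists, 1 point per gene, filled where the adjusted p was below 0.05, with a black bar at the list median. The epithelial and mesenchymal lists scatter to both sides of 0 with medians between -0.16 and 0.10, and the intermediate filament list lies lowest with shRNA #1, at a median of -0.77.

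Among regulators of the EMT factors, 40 of 49 listed were tested with shRNA #1 (13 higher, 17 lower, 10 not called, median -0.02) and 39 with shRNA #2 (17 higher, 13 lower, 9 not called, median 0.16). Of all tested genes, 32.8% were called higher and 33.3% lower with shRNA #1, and 33.5% and 33.4% with shRNA #2. ID1 and ID2, which bind E proteins and keep them off DNA, fell. ID1 went from 3723 ± 245 to 796 ± 50.3 with shRNA #1 and from 4024 ± 269 to 1230 ± 118 with shRNA #2 (limma adjusted p = 1.43e-08 and 6.40e-08). ID2 had log2 fold changes of -1.86 and -1.05. The forkhead factor FOXQ1 fell by 2.14 with shRNA #1 and fell by 0.53 with shRNA #2, and ETS1, the founding ETS-family transcription factor, rose by 0.74 and 0.79.

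Splicing factors linked to EMT had 17 of 18 members tested in each comparison. With shRNA #1 5 were higher, 8 lower and 4 not called (median -0.17). With shRNA #2 9 were higher, 2 lower and 6 not called (median 0.31). The shares over all tested genes were 32.8% higher and 33.3% lower with shRNA #1, and 33.5% and 33.4% with shRNA #2. Beside ESRP2, the regulators KHDRBS1 (Sam68, 0.44 and 0.60), CELF1 (0.41 and 0.46) and QKI (0.35 and 0.46), which act on alternative exons, rose in both comparisons. Whether exon use itself changed cannot be read from counts per gene.

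In the intermediate filament list, vimentin's own family with its linker proteins, more genes were lower than higher, against 33.3% of all tested genes called lower with shRNA #1 and 33.4% with shRNA #2. Most of the lower genes were keratins with either hairpin, and KRT8, KRT18 and KRT19 are in the epithelial list too. Of 26 listed, 19 were tested with shRNA #1, where 1 was higher, 14 lower and 4 not called (median -0.77, all genes 0.00), and with shRNA #2 3 were higher, 10 lower and 6 not called (median -0.25, all genes 0.01). NES (nestin), which copolymerizes with vimentin, fell from 852 ± 62.7 to 427 ± 27.6 with shRNA #1 and from 921 ± 71.0 to 87.6 ± 11.3 with shRNA #2. GFAP, like vimentin a type III filament gene, went from 378 ± 28.4 to 190 ± 7.66 and from 409 ± 30.3 to 130 ± 13.7, and KRT8, a main keratin of simple epithelia, from 13188 ± 266 to 4669 ± 25.9 and from 14255 ± 272 to 8388 ± 254. The hair keratin gene KRT81 had log2 fold changes of -0.84 and -1.78. The gene that was higher with shRNA #1 was EPPK1 (epiplakin), at 1.43, and it was 2.55 with shRNA #2.

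Each of ZEB1 and VIM has an annotated antisense gene across its start, on the other strand: ZEB1-AS1 (chromosome 10, bases 31206278 to 31320447) and VIM-AS1 (bases 17214239 to 17230018). The libraries kept the strand and were counted by strand, and these genes were named after their values were seen. ZEB1-AS1 had 167, 208 and 200 normalized counts with NS shRNA and 421, 430 and 402 with shRNA #1, a rise of 1.12 (SE 0.10, limma adjusted p = 8.73e-06). With shRNA #2 it had 149, 180 and 190 against 181, 226 and 216, a difference of -0.26 (SE 0.13, limma adjusted p = 0.105), although ZEB1 rose there too. Between the hairpins ZEB1-AS1 differed by -1.39 (edgeR adjusted p = 8.52e-07) and ZEB1 by 0.09.

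VIM-AS1 had 420, 503 and 503 normalized counts with NS shRNA and 501, 491 and 506 with shRNA #1, a difference of 0.08 (SE 0.09, limma adjusted p = 0.456). With shRNA #2 it had 281, 291 and 296 against 453, 546 and 543, a fall of 0.82 (SE 0.10, limma adjusted p = 2.90e-05). Antisense and sense counts thus moved in the same direction with shRNA #2 at VIM and with shRNA #1 at ZEB1, and differed in call in the other comparison of each gene.

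**Figure D4:**
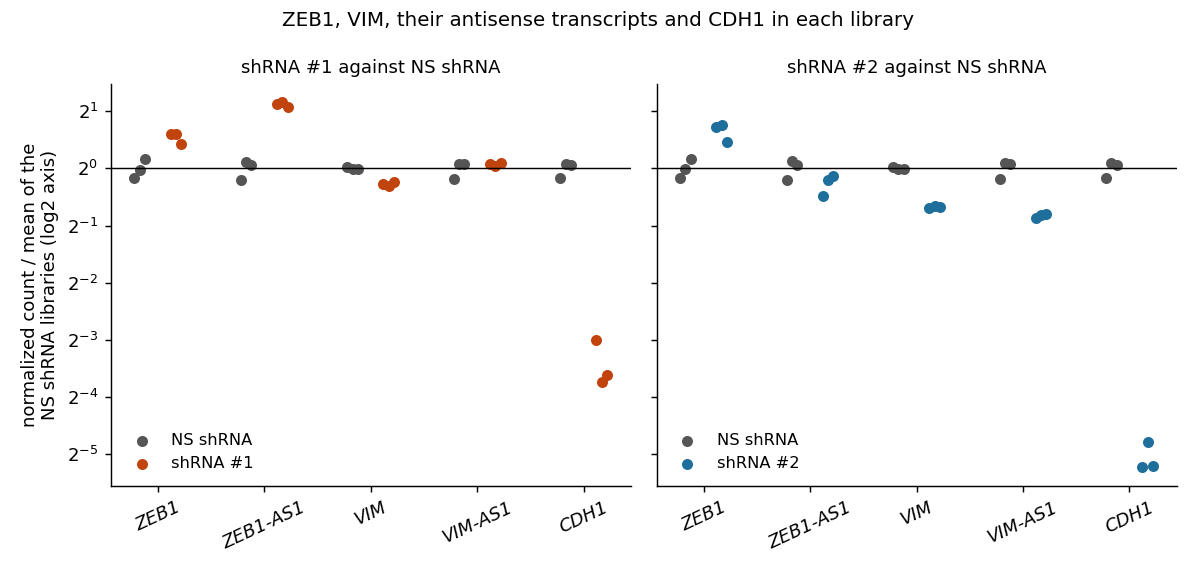
Normalized count of ZEB1, VIM, their antisense genes and CDH1 in each library, divided by the mean of the NS shRNA libraries of the same table, on a log2 axis. ZEB1 is above 1 with both hairpins while ZEB1-AS1 is above 1 with shRNA #1 only, VIM is below 1 with both (with shRNA #1 its log2 difference relative to ACTB is 0.62), and CDH1 is the lowest gene drawn in each panel.

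The genes whose pattern over the 9 libraries was most like those of ZEB1, ZEB2 and VIM were sought among 11630 genes with a mean of at least 100 reads, by Pearson's r on log2(RPM + 1). They were NF1 (0.997), EGFR (0.996) and EXOC6B (0.995) for ZEB1. For ZEB2 they were ZNF131 (0.998), PGM3 (0.996) and RNF6 (0.996), and for VIM CST1 (0.999), RAC2 (0.997) and CD59 (0.997). The points are 3 groups of 3 libraries, so the r mainly reflects the order and spacing of the 3 groups and is given as a description.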

How the data were processed

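The 9 RNA-seq libraries of MDA-MB-231 cells comprised 3 each with NS shRNA, ASAH1 shRNA #1 and ASAH1 shRNA #2. Per the labels, mRNA was selected with oligo-dT and made into strand-specific libraries, whereas the series design names ribosomal RNA depletion. The submitters' processing notes name Trimmomatic 0.36, STAR 2.7.1a on hg38, HTSeq and DESeq2 1.28. The deposited values are signal in the form of normalized counts, gene counts that the authors divided by size factors, in a table per hairpin with the NS libraries scaled anew in each. Whole reads were recovered from them (within 0.05 of a whole number for 100% of values). 28 symbols that a spreadsheet had turned into dates were restored from the other table.

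Each hairpin was compared with NS shRNA by limma 3.58.1 with an intensity trend on log2(normalized count + 1), for genes with a mean of at least 10 over the 6 libraries of a table, with Benjamini-Hochberg adjustment over all tested genes and a threshold of 0.05. The hairpins were compared by the quasi-likelihood test of edgeR 4.0.16 with TMM scaling on recovered reads, for genes with a mean of at least 10 reads. The 95% intervals between the hairpins are the difference plus or minus 1.96 SE, a normal approximation that is narrower than the limits of that test. A fold change on the log2(value + 1) scale understates the change of low genes. Exact 95% intervals of read ratios cover counting error only. Gene positions are from GENCODE v44. The fits were tested on simulated data. Alternatives were other pseudocounts (0.1 and 5), other minimums (none and 50), no trend, upper-quartile scaling, edgeR, DESeq2 1.42.0, all 9 libraries in 1 fit, the replicate block, ACTB scaling and leaving out each library.

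Besides the 10 genes, ASAH1 and CDH1, the text names from each of 5 lists (epithelial, mesenchymal, EMT regulator, splicing factor and intermediate filament) the 4 genes with the largest mean change among those called with the same sign in both comparisons and with a mean of at least 100, and other genes only where said. The result of 1 gene chosen by this rule is not reported here. 2 listed genes, PATJ and DUB3, were not found under those symbols. The genes and lists were chosen with earlier results of these data known.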

Additional observations from a re-analysis of the deposited data

Results flagged for a closer look

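The direct edgeR test between the hairpins, on all 9 libraries, was read for the 10 EMT genes and for ASAH1, ACTB, CDH1, VIM-AS1 and ZEB1-AS1, and for no other named gene. Of the 11 of these that were tested, 9 differed, each given as log2 of shRNA #2 over shRNA #1. Among the EMT genes these were ZEB2 (-0.24), SNAI2 (-1.48), ESRP1 (-2.52) and VIM (-0.42), of which ESRP1 passed the minimum only through the shRNA #1 libraries. Outside them they were ASAH1 (-0.89), CDH1 (-1.61), VIM-AS1 (-0.91), ZEB1-AS1 (-1.39) and ACTB (0.35). All of these but ACTB were lower with shRNA #2, with edgeR adjusted p from 1.33e-08 for SNAI2 to 0.0404 for ZEB2, against 32.5% of all tested genes called lower and 31.4% called higher. Groups of 3 libraries were not tested for single libraries that stand apart.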

How the results depend on the processing

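The counts of called members and list genes stayed within 1.5 times the reported count, and the ASAH1 differences kept their direction and call. This held for these 15 results in all 242 alternative values. The direction of the counted calls was not part of this check. Relative to ACTB, all 6 members tested with shRNA #1 were higher, VIM included. Of 70 results on single genes, 64 kept their direction and call in every alternative. Of 1109 alternative values 11 lost the call and 4 turned direction. The turned values were VIM with shRNA #1 (0.62) and SNAI2 with shRNA #2 (0.40) relative to ACTB, VIM-AS1 with shRNA #1 without single libraries (-0.011 to 0.12) and RBM47 with shRNA #2 without single libraries (-0.095 to 0.0056). The lost calls were those of SNAI1 and ZEB2 given above. Without a minimum on counts, 6 members instead of 4 were called with shRNA #2, the added ones being ESRP1 and GRHL2. ESRP1 between the hairpins was -0.76 with limma on log2 of RPM + 1, a scale that understates the change of low genes. The ACTB scaling was run on all genes, but beyond the counts and medians over all genes its results were read for members and ASAH1 only.

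With the replicate number as a block (replicate block), 6, 4 and 3 members were called in the 3 comparisons, the 1 lost being ZEB2 between the hairpins (-0.24, adjusted p = 0.0590). Over all genes the block left 4120 higher and 4117 lower with shRNA #1, and 4246 and 4280 with shRNA #2. Deviations of same-numbered libraries correlated at -0.27 to -0.13 with shRNA #1, -0.32 to -0.10 with shRNA #2 and 0.05 to 0.20 between the hairpins. Differently numbered libraries were not correlated for reference, so whether a shared number pairs libraries was not tested. Depth limits TWIST1, TWIST2, PRRX1 and GRHL2, which had at most 11 reads in any library.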
